A study of Mus musculus with 4 samples.

Results

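The genes described here are the membrane transporters of the ATP-binding cassette (ABC) families A, B, C, D and G and the organic anion transporting polypeptides (SLCO family), taken by gene symbol. They number 61 of 35522 genes in the deposited tables: 46 ABC genes and 15 Slco genes. Liver RNA was sequenced 24 hours after diethylnitrosamine (DEN), a carcinogen that liver enzymes turn into a DNA-alkylating agent. Of the 4 libraries, 2 came from livers labelled Control and 2 from livers labelled Dph1 KO, all of strain C57BL/6 and all given DEN. Dph1 encodes a subunit of the enzyme that starts diphthamide synthesis on elongation factor eEF2. How the Dph1 deletion was made, in which cells it acts, and how old the mice were, is not given in the sources used. No liver without DEN was analysed here, so a response to DEN and a standing difference between the genotypes cannot be told apart.

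A hepatocyte faces blood on its sinusoidal (basolateral) side and bile on its canalicular side. Organic anion transporting polypeptides take up bile acids, bilirubin, hormones and drugs from blood without using ATP. ABC transporters use ATP to push bile acids, phospholipid, sterols and conjugated waste into bile, or back into blood when bile flow fails. Other ABC proteins sit in peroxisomes, mitochondria and lysosomes, where they carry fatty acyl-CoA, metal cofactors, peptides or vitamins.

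In Dph1 KO livers 6 of the 43 transporter genes with enough reads for a test rose: Abcb1b, Abcc2, Slco1b2, Slco1a4, Abca8b and Abca9. A single gene, Abca7, fell, and 36 were not called. The changes were modest, with log2 fold changes from -0.80 to 1.24 over the 43 genes. "Rose" and "fell" are used for genes with a Benjamini-Hochberg adjusted p under 0.05 in edgeR's quasi-likelihood test over all 13303 tested genes. The share called was 16.3% among the tested transporters and 12.3% among all tested genes. Rises made up 14% of tested transporters beside 4.86% of all tested genes, and falls 2.33% beside 7.47%. Of the 43, 3 rises (6.98%) were called after a trend on GC content and transcript length was removed from each library, beside 9.43% of all genes (4.35% higher, 5.08% lower). Values after that step are called GC-corrected below. The count of called transporters moved with single libraries, as did the count over all genes. Both were lower when either Control replicate was left out and higher when Dph1 KO replicate 2 was dropped.

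The sequences shown next are the stretches in front of the 3 genes that rose with and without GC correction, and the short gap between the paired sterol exporter genes Abcg5 and Abcg8, which did not pass the test. They come from RefSeq promoter windows on GRCm38.p6, which were matched by gene ID for 47 of the 61 genes. Each of the first 3 is the 250 bases before the annotated start. Capitals mark matches, on either strand, to 4 short motifs: AGGTCA (the half-site of many nuclear receptors), GTTAA (the start of the HNF1 half-site), CCAAT (the NF-Y box) and AGATAA (the GATA motif). Where 2 matches overlap, the capitals run on. The motifs were chosen after the sequences were seen, and a match is only a match of letters.
Abcb1b, chr5:8797897-8798146, plus strand: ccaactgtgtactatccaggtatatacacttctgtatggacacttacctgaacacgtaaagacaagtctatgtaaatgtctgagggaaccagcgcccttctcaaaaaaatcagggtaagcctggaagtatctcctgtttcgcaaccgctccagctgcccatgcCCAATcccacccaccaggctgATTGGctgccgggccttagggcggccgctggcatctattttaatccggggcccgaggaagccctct
Abcc2, chr19:43782058-43782307, plus strand: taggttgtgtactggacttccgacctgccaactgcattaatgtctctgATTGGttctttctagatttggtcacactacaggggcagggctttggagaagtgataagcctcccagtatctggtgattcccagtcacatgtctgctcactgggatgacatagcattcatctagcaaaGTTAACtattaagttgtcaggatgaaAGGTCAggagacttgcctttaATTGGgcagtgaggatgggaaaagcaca
Slco1b2, chr6:141629268-141629517, plus strand: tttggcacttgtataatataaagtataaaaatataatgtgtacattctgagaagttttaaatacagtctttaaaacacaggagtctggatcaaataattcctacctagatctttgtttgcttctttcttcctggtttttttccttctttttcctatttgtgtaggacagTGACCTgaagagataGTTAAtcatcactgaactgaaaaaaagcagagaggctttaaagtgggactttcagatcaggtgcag
Abcg5 to Abcg8, chr17:84683012-84683120, plus strand: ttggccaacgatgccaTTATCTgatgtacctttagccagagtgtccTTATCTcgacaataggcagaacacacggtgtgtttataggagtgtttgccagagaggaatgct

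The windows of Abcc2 and Slco1b2 each held 1 AGGTCA match, and GTTAA was matched 2 times in Abcc2 and 1 time in Slco1b2. The Abcb1b window held 2 CCAAT matches and none of the other 3 motifs, and Abcc2 also held 2 CCAAT matches. The RefSeq starts of Abcg5 and Abcg8, which point away from each other, lie closer together than in the deposited tables (84682923 and 84683131). The 109 bases between the RefSeq starts held 2 GATA matches. Such matches were common: among 32851 RefSeq windows of 250 bases, 14% held AGGTCA, 21.7% GTTAA, 33.8% CCAAT and 9.99% AGATAA. Among the 57 windows of the transporter genes, the shares were 17.5%, 15.8%, 28.1% and 7.02%. GC content of the windows was 33.6% for Slco1b2, 45.6% for Abcc2 and 52.8% for Abcb1b, with a median of 52.4% over all windows.

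The libraries held 19474596 to 21137358 reads in genes, and the transporters took 0.259% and 0.306% of them in Control and 0.445% and 0.335% in Dph1 KO. Almost all of those reads (99.5% to 99.7%) matched a single place. The check of the labels held by level: Dph1 stood at 70.2 and 68.2 CPM (counts scaled to library size with TMM factors) in Control and at 17.8 and 31.5 CPM in Dph1 KO (log2 fold change -1.49, SE 0.26, edgeR adjusted p = 0.0107). Sample titles end in 4 different identifiers, but no label states that the 2 libraries of a genotype are from different mice. P-values therefore describe the spread among these 4 libraries, and whether that spread lies between mice or is technical was not tested. With 2 libraries against 2, an exact two-sided permutation test cannot go below p = 0.333, so every call rests on the spread shared across genes. Hepatocyte markers were abundant in all 4 libraries, with 8 genes summing to 88800 and 97400 CPM in Control and 73400 and 97700 CPM in Dph1 KO, and none of the 8 was called.

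Of the 61 genes, 18 had too few reads for the test, with at most 17 reads over the 4 libraries together. Slco6b1, Slco6d1, Slco1c1, Slco1a5 and Abcc8 had 0 reads, which allows up to 0.142 to 0.154 CPM per library (3 reads of the library total, counting error only). The other 13 were Slco4a1, Slco4c1, Slco5a1, Slco6c1, Abca4, Abca12, Abca13, Abca14, Abca15, Abca16, Abcb5, Abcc12 and Abcg4. Among the tested 43, RPKM (exon reads scaled by exon length and library size, as the authors deposited it) compares levels between genes. By mean RPKM over the libraries, 18 genes lay above 10, 16 between 1 and 10, and 9 below 1. The highest were Abcd3 at 79.5, Abcc3 at 67.4, Abcc2 at 58.2, Abcb4 at 55.4 and Abcb6 at 45.7 RPKM. One of the tested genes, Slco1a6, was counted through intron reads only and is listed at 0 RPKM.

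**Figure D1:**
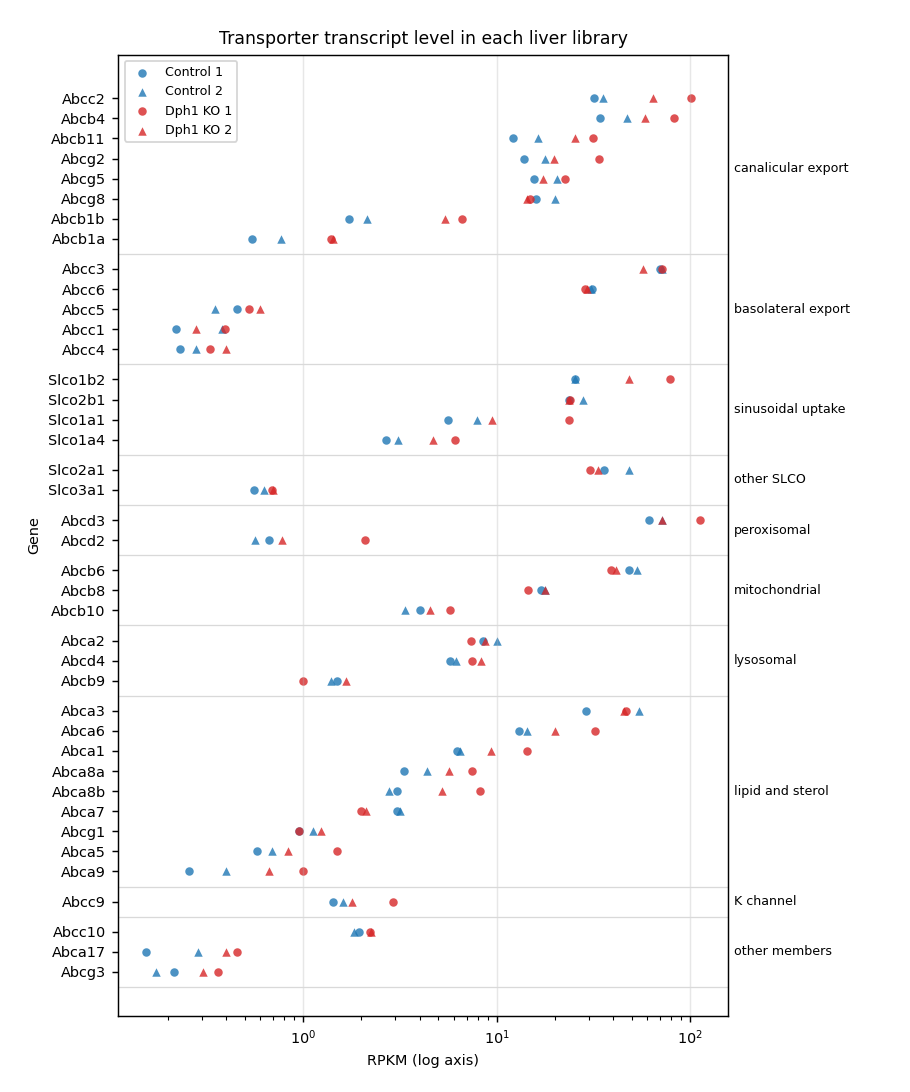
Deposited RPKM on a log axis for tested transporter genes above 0 RPKM that are reported by name, grouped by the site where each protein is known to act. Each point is 1 library, with Control in blue and Dph1 KO in red, circles for replicate 1 and triangles for replicate 2. Among the canalicular exporters, Abcc2, Abcb4, Abcb11, Abcg2, Abcb1b and Abcb1a show both red points to the right of both blue points. RPKM has no TMM factors, and in TMM-scaled CPM the Abcg2 values overlapped.

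Of the 8 canalicular exporters, 2 rose in Dph1 KO (25%, beside 4.86% of all tested genes) and none fell. The median log2 fold change of the 8 was 0.65, beside 0.04 over all tested genes. Abcb1b encodes a P-glycoprotein, an efflux pump for bulky hydrophobic drugs. It stood at 11.4 and 13.6 CPM in Control and at 31.3 and 27.5 CPM in Dph1 KO. Both Dph1 KO libraries lay well above both Control libraries, and the gap between genotypes was far wider than the gap within either. Its log2 fold change was 1.24 (SE 0.20, edgeR adjusted p = 0.00764), the largest among the tested transporters. The GC-corrected value was 0.89 (edgeR adjusted p = 0.0134), and the call held with each library left out in turn (log2 fold change 1.11 to 1.37, adjusted p 0.000498 to 0.0437). Introns held 28.7% and 20.9% of Abcb1b reads in Control, against 18.5% and 14.8% in Dph1 KO, and the edgeR call was kept on exon reads alone.

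The related P-glycoprotein gene Abcb1a was lower in level and did not pass the test. It had 2.93 and 4.61 CPM in Control and 6.56 and 7.22 CPM in Dph1 KO (log2 fold change 0.87 with SE 0.28; edgeR adjusted p = 0.0643). The groups of Abcb1a did not overlap either. In RPKM, Abcb1b was above Abcb1a by 3.16 and 2.80 times in Control and by 4.76 and 3.83 times in Dph1 KO. Not all reads of this pair matched a single place (89.1% unique for Abcb1b, 88.0% for Abcb1a), so some reads may be shared between the copies. With uniquely matched reads, Abcb1b was called again.

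Abcc2 encodes the pump that moves bilirubin glucuronides and glutathione conjugates into bile. It had 222 and 256 CPM in Control and 611 and 415 CPM in Dph1 KO. The 2 Dph1 KO libraries differed from each other by more than the Control libraries did, but both were above them. The log2 fold change was 1.10 (SE 0.28, edgeR adjusted p = 0.0331) and the GC-corrected value 0.67 (adjusted p = 0.0486). The call was lost without Control replicate 1 or without Control replicate 2 (adjusted p over the 4 such fits 0.000778 to 0.235). In RPKM, Abcc2 overtook Abcb4 as the highest canalicular exporter in both Dph1 KO libraries.

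The other canalicular exporters did not pass the test. Abcb11, the bile salt export pump, had 66.3 and 95.9 CPM in Control and 143 and 128 CPM in Dph1 KO (log2 fold change 0.74, SE 0.24, edgeR adjusted p = 0.0633). It was called higher when either Dph1 KO library was left out, by DESeq2, on exon reads and with no scaling beyond the library total, but its GC-corrected value was 0.39 (edgeR adjusted p = 0.211). Abcb4, which moves phosphatidylcholine into bile, had 169 and 248 CPM in Control and 346 and 271 CPM in Dph1 KO (log2 fold change 0.56, SE 0.27). For Abcg2, an exporter of drugs, urate and porphyrins, the Control values of 39.5 and 53.6 CPM overlapped the Dph1 KO values of 78.7 and 50.5 CPM.

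Abcg5 and Abcg8 encode the 2 partners of the pump that sends sterols into bile. Abcg5 had 43.2 and 61.5 CPM in Control and 55.9 and 48.7 CPM in Dph1 KO, with a log2 fold change of 0.00 (SE 0.23). Abcg8 had 65.4 and 86.8 CPM in Control and 50.7 and 56.8 CPM in Dph1 KO (log2 fold change -0.50, SE 0.22, edgeR adjusted p = 0.132). Abcg5 values overlapped between the genotypes, and Abcg8 values did not. In RPKM the ratio of Abcg5 to Abcg8 was 0.973 and 1.02 in Control, against 1.52 and 1.20 in Dph1 KO. Introns held 18.3% and 20.3% of Abcg5 reads in Dph1 KO, against 11.6% and 12.4% in Control. The intron share over all transporter reads was also higher in Dph1 KO. Intron reads do not enter RPKM.

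None of the 5 basolateral exporters was called by edgeR, and none had an unadjusted p under 0.05; their median log2 fold change was -0.11. Abcc3, which exports glucuronides and bile acids back into blood, had 385 and 419 CPM in Control and 328 and 291 CPM in Dph1 KO (log2 fold change -0.38, SE 0.24, edgeR adjusted p = 0.289). Abcc6, whose loss causes ectopic mineralisation, had 176 and 182 CPM in Control and 140 and 155 CPM in Dph1 KO. Both were abundant, and for each the Dph1 KO libraries lay below the Control libraries without passing the test. Abcc4, a second route for bile acids into blood, stood at 2.12 and 1.95 CPM in Control and 2.24 and 2.74 CPM in Dph1 KO. The exporters Abcc1 and Abcc5 were similarly low, with 1.58 to 5.16 CPM over the libraries.

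Transport was not measured, but transcript levels can be compared within each library by the ratio of Abcc2 (to bile) to Abcc3 (to blood). In RPKM it was 0.453 and 0.495 in Control, against 1.42 and 1.13 in Dph1 KO. Abcc3 was thus the higher of the pair in both Control libraries and Abcc2 in both Dph1 KO libraries. The ratios of the genotypes do not overlap, and their difference was not tested. GC content differs between the transcripts (45.2% for Abcc2, 54.2% for Abcc3), and the GC-corrected log2 fold changes were 0.67 and -0.22.

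Sinusoidal uptake carriers included 2 rises among 4 genes, with a median log2 fold change of 0.91. Over all tested genes 4.86% rose and the median was 0.04. After GC correction 1 of the 4 was called, and their median was 0.36. Slco1b2 encodes the liver-specific carrier for bilirubin, bile acids and statins, the mouse counterpart of human OATP1B1 and OATP1B3. Its level was 97.7 and 103 CPM in Control and 262 and 170 CPM in Dph1 KO. The Control libraries were almost equal, and both Dph1 KO libraries were higher. The log2 fold change was 1.11 (SE 0.26, edgeR adjusted p = 0.0264) and the GC-corrected value 0.59 (adjusted p = 0.0443). Leaving out either Control library ended the call (adjusted p over the 4 leave-one-out fits 0.000409 to 0.148).

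Slco1a4, a carrier of steroid conjugates, bile acids and cardiac glycosides, had 13.7 and 16.1 CPM in Control and 27.1 and 24.2 CPM in Dph1 KO. The groups were apart and tight, with a log2 fold change of 0.78 (SE 0.20, edgeR adjusted p = 0.0353). This call was lost after GC correction (0.29, adjusted p = 0.288), on exon reads and without either Control library. Intron shares of its reads were 18.7% and 15.5% in Control, against 23.7% and 26.5% in Dph1 KO. The share over all transporter reads was also higher in Dph1 KO. Slco1a1, a carrier of estrogen conjugates and bile acids, had 24.7 and 37.8 CPM in Control and 88.3 and 39.4 CPM in Dph1 KO. Its Dph1 KO replicate 2 was hardly above the higher Control library, and the log2 fold change of 1.03 (SE 0.34) did not pass (edgeR adjusted p = 0.0687).

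Slco2b1, a broad carrier of steroid sulfates, was the one uptake gene on the low side. It had 134 and 167 CPM in Control and 115 and 124 CPM in Dph1 KO (log2 fold change -0.33, SE 0.22, edgeR adjusted p = 0.302). In RPKM Slco1b2 and Slco2b1 were about equal in Control (ratio 1.06 and 0.913), while Slco1b2 exceeded Slco2b1 by 3.28 and 2.04 times in Dph1 KO. The difference in ratio was not tested. GC content differs between these transcripts (38.6% for Slco1b2, 51.5% for Slco2b1), and their GC-corrected log2 fold changes were 0.59 and -0.37. Of the other 11 Slco genes, 3 were tested and none was called. Slco2a1, the prostaglandin transporter, was the abundant one, at 159 and 226 CPM in Control and 111 and 136 CPM in Dph1 KO (log2 fold change -0.64, SE 0.25, edgeR adjusted p = 0.103). Slco2a1 is known from vascular endothelium, and the 8 endothelial markers summed to 296 and 305 CPM in Control and 218 and 231 CPM in Dph1 KO, with 1 of 8 called (Stab1, which fell). In whole liver, fewer cells of a type and less RNA per cell cannot be told apart, and the part of endothelial content in Slco2a1 was not tested.

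**Figure D2:**
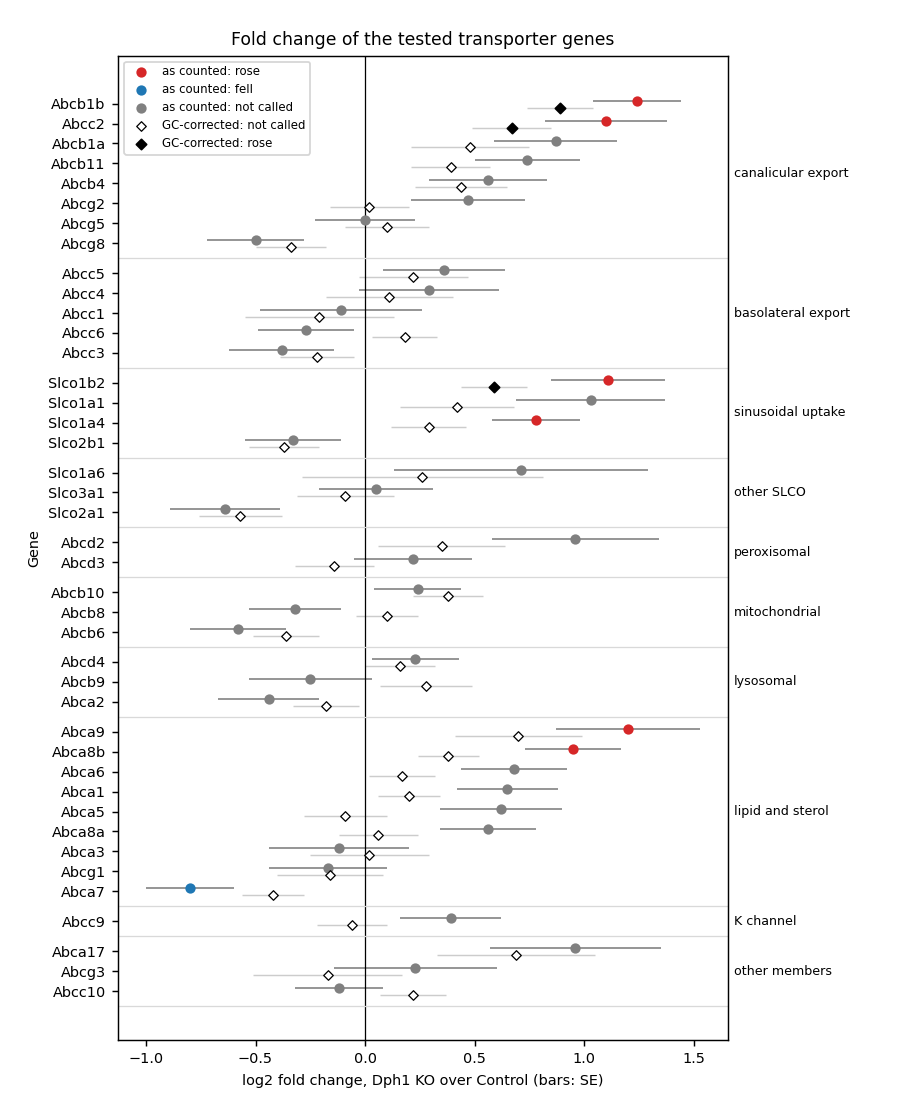
Log2 fold change of Dph1 KO over Control for the tested transporter genes reported by name, by site of action; bars are standard errors. Circles are values as counted (red rose, blue fell, grey not called) and diamonds the GC-corrected values (filled where called), which lie nearer 0 for most of the genes with positive values; Abcb1b, Abcc2 and Slco1b2 have filled diamonds.

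Peroxisomal transporters, which bring fatty acyl-CoA into the peroxisome for oxidation, were not called in either direction. Abcd3, the most abundant transporter by RPKM, carries branched-chain acyl-CoA and bile acid precursors and had 230 and 286 CPM in Control and 353 and 248 CPM in Dph1 KO. The genotypes overlapped (log2 fold change 0.22, SE 0.27, edgeR adjusted p = 0.578). Abcd2, a carrier of very-long-chain acyl-CoA, was low, at 4.13 and 3.61 CPM in Control and 10.7 and 4.34 CPM in Dph1 KO, and only Dph1 KO replicate 1 stood apart.

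Mitochondrial and lysosomal members were not called either. Abcb6, linked to porphyrin transport, had 155 and 183 CPM in Control and 104 and 122 CPM in Dph1 KO (log2 fold change -0.58, SE 0.22, edgeR adjusted p = 0.0981); DESeq2 called it lower. Abcb8 and Abcb10, inner membrane transporters, had log2 fold changes of -0.32 and 0.24. The lysosomal genes were Abca2, Abcd4 (cobalamin export) and Abcb9 (peptide uptake), with log2 fold changes of -0.44, 0.23 and -0.25.

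Among 12 genes of cellular lipid and sterol export, 9 were tested, 2 rose and 1 fell. These were 22.2% and 11.1% of the 9, beside 4.86% and 7.47% of all tested genes. Abca8b had 22.7 and 21.5 CPM in Control and 50.8 and 34.7 CPM in Dph1 KO (log2 fold change 0.95, SE 0.22, edgeR adjusted p = 0.0275). Abca9 was low, at 1.85 and 3.45 CPM in Control and 6.82 and 5.35 CPM in Dph1 KO (log2 fold change 1.20, SE 0.33, edgeR adjusted p = 0.0429). Both genes belong to the Abca6-like group of lipid transporters, whose substrates are less well known than those of Abca1. Neither call was kept after GC correction (0.38 and 0.70, adjusted p = 0.109 and 0.160). The Abca8b call was also lost without either Control library, and that of Abca9 when replicate 1 of Control, or of Dph1 KO, was dropped.

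Abca7, a phospholipid exporter linked to phagocytosis, was the gene that fell. It had 22.3 and 24.7 CPM in Control and 12.5 and 14.5 CPM in Dph1 KO, with little spread within either genotype (log2 fold change -0.80 with SE 0.20; edgeR adjusted p = 0.0326). The GC-corrected value was -0.42 (adjusted p = 0.0971), and the call was lost without either Control library and with no scaling beyond the library total (log2 fold change -0.89 to -0.38 over the alternatives). The macrophage marker list, given because Abca7 is also expressed in macrophages, summed to 290 and 304 CPM in Control and 181 and 303 CPM in Dph1 KO, with 1 of 8 genes called (Cd68, which fell); its part in the Abca7 value was not tested. Abca1, which loads cholesterol onto apolipoprotein A-I to form HDL, had 71.2 and 78.3 CPM in Control and 135 and 99.1 CPM in Dph1 KO (log2 fold change 0.65, SE 0.23, edgeR adjusted p = 0.0778). Abca3, best known from lung surfactant, was the most abundant of the list by RPKM, and its Control libraries were far apart at 207 and 410 CPM, with Dph1 KO at 275 and 295 CPM between them.

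Of the remaining genes, Abcc9, a regulatory subunit of ATP-sensitive potassium channels, had 12 and 14.3 CPM in Control and 20.3 and 14.2 CPM in Dph1 KO. It is known from vascular mural cells, whose list of stellate cell, pericyte and fibroblast markers summed to 156 and 176 CPM in Control and 164 and 148 CPM in Dph1 KO. Of these 8 markers, 1 rose and 2 fell (12.5% and 25%, beside 4.86% and 7.47% of all tested genes). None of the 8 was called after GC correction. The other ABC genes, Abcc10, Abca17 and Abcg3, were tested and not called.

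The 3 tandem clusters picked here hold 12 of the 43 tested transporter genes, and all 12 had a positive log2 fold change. Other neighbouring transporter genes were left out. Among them were Abcg5 with Abcg8, and Abca17 with Abca3 on chromosome 17 (log2 fold changes 0.96 and -0.12). On chromosome 5, Abcb1a, Abcb1b and Abcb4 lie within 8660092 to 8959226 (GRCm38), and all 3 had both Dph1 KO libraries above both Control libraries. On chromosome 6, the Slco1 genes from Slco1c1 to Slco1a5 lie within 141524386 to 142322981; of the 4 tested, Slco1b2, Slco1a4 and Slco1a1 were without overlap and Slco1a6, at under 1 CPM, overlapped. On chromosome 11, Abca8b, Abca8a, Abca9, Abca6 and Abca5 follow each other within 109933406 to 110337716 with no other gene of the tables between them, and all 5 were without overlap. Over all tested genes, 34.9% had both Dph1 KO libraries above both Control libraries and 32.5% both below, and over the 43 transporters these counts were 22 and 11. The clusters were picked after the values were seen, so these counts describe them and test nothing.

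The cluster values were smaller after GC correction. Their median log2 fold changes moved from 0.87 to 0.48 on chromosome 5, from 0.91 to 0.36 on chromosome 6 and from 0.68 to 0.17 on chromosome 11. Abca6, the most abundant gene of the chromosome 11 group, had 86.4 and 99.8 CPM in Control and 176 and 123 CPM in Dph1 KO, and its GC-corrected log2 fold change was 0.17. The median GC content of the tested genes was 45.7%, 39.3% and 43.4% in the 3 clusters, below the 49.9% over all tested genes. Dph1 KO replicate 1 was the higher Dph1 KO library for 11 of these 12 genes, all but Abcb1a.

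**Figure D3:**
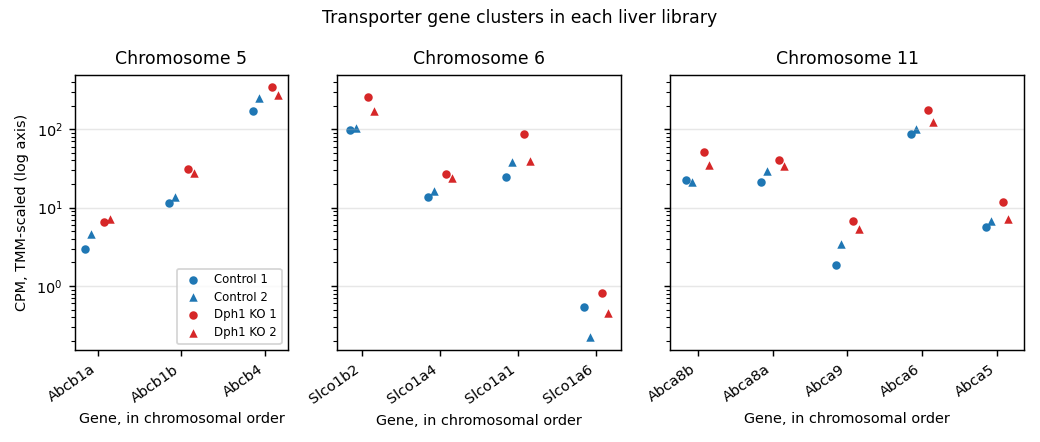
TMM-scaled CPM on a log axis for the tested genes of the 3 transporter clusters in chromosomal order; each point is 1 library (Control blue, Dph1 KO red, circles replicate 1, triangles replicate 2). The red points lie above the blue points for every gene but Slco1a6, where 1 blue point at 0.544 CPM lies above the lower red one at 0.457 CPM.

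Across the tested transporters the fold change was lower where the GC content of the transcript was higher. Over the 43 genes Pearson's r was -0.82 and Spearman's rho -0.80, and over 12093 tested genes with GC content rho was -0.60; genes share the 4 libraries and are not independent, so no p is given. In the lowest of 5 equal classes of tested genes by GC (31.2% to 44.0%), the 12 transporters had a median log2 fold change of 0.70 beside 0.48 over all genes there. In the next class, up to 48.0% GC, 9 transporters had a median of 0.87 beside 0.28, and this class holds Abcb1b, Abcc2, Abca9 and Abcb11. The 7 transporters in the highest class had a median of -0.32 beside -0.56. All 6 genes that rose lay in the 2 lowest classes and Abca7 in the highest. After GC correction, r and rho over the 43 transporters were both -0.39, so the relation was weaker but not gone.

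With the GC and length trend removed, the median log2 fold change of the transporters went from 0.29 to 0.11 (all tested genes: 0.04 and 0.01), and that of the canalicular exporters from 0.65 to 0.41. The uptake carriers, at 0.91 before, stood at 0.36, the lipid exporters at 0.06, the basolateral exporters at 0.11 and the peroxisomal transporters at -0.14. With no scaling beyond the library total, the median of all genes moved from 0.04 to 0.30, and 18 transporters were called, all higher; 5 genes (Abcc1, Abca3, Abcg1, Abcc10 and Abcg5) then turned from negative to positive.

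**Figure D4:**
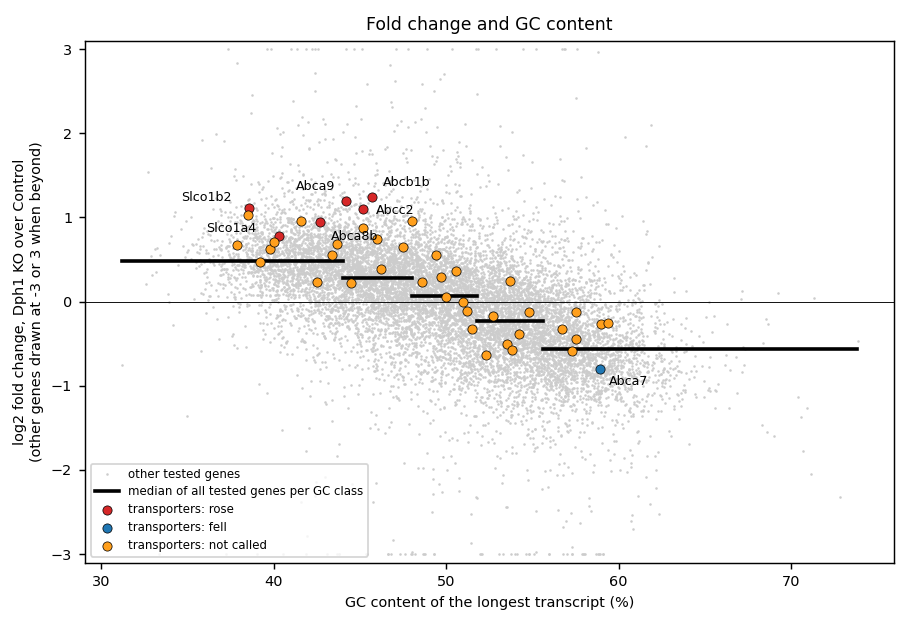
Log2 fold change of Dph1 KO over Control against the GC content of the longest transcript, in percent, for 12093 tested genes; grey points are other genes, black bars the median of each of 5 GC classes, coloured points the 43 transporters (red rose, blue fell, orange not called). Transporters descend with the grey cloud from left to right, and Abcb1b, Abcc2 and Abca9 lie above the bar of their class.

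The partners of these transporters were read from lists written by hand. Among 14 genes of canalicular membrane scaffolding and trafficking, 2 rose (14.3%, beside 4.86% of all tested genes) and none fell. Both encode parts of one lipid flippase: Atp8b1, the ATPase whose loss causes progressive cholestasis, had 11.2 and 13.7 CPM in Control and 28.6 and 23.7 CPM in Dph1 KO (log2 fold change 1.07 with SE 0.21; edgeR adjusted p = 0.0162). Its accessory subunit Tmem30a had 27.3 and 27.5 CPM in Control and 64.6 and 40.2 CPM in Dph1 KO (log2 fold change 0.93, SE 0.24, edgeR adjusted p = 0.0359). Atp8b1 kept its call after GC correction (0.65, adjusted p = 0.0364) and Tmem30a did not (0.40). The Atp8b1 call was lost without Control replicate 1 and that of Tmem30a without either Control library. More of the 14 were called once Dph1 KO replicate 2 was dropped, as was so over all tested genes.

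Of 17 tested hepatocyte transporters outside these families, none rose and 1 fell. It was Slc22a7, an organic anion and nucleotide carrier of the sinusoidal side, with 31.3 and 57.0 CPM in Control and 8.68 and 20.6 CPM in Dph1 KO (log2 fold change -1.60, SE 0.38, edgeR adjusted p = 0.0281). It was called with each library left out and missed the threshold after GC correction (-1.15, edgeR adjusted p = 0.0502) and by DESeq2 (-1.61, adjusted p = 0.110). Among 15 nuclear receptors and other regulators of transporter genes, only the aryl hydrocarbon receptor gene Ahr was called. It rose from 24.7 and 18.2 CPM to 45.8 and 41.7 CPM (log2 fold change 1.03, SE 0.21, edgeR adjusted p = 0.0191; GC-corrected 0.66, adjusted p = 0.0475), and this call did not hold without Control replicate 2. More genes of both lists were called when Dph1 KO replicate 2 was dropped, as was so over all tested genes.

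Partners of the organelle and sterol transporters were read in the same way. Of 12 genes of mitochondrial haem and iron-sulfur supply, 2 fell (16.7%, beside 7.47% of all tested genes) and none rose. Alas1, the rate-limiting enzyme of liver haem synthesis, had 1250 and 799 CPM in Control and 155 and 444 CPM in Dph1 KO (log2 fold change -1.77, SE 0.45, edgeR adjusted p = 0.0337). DESeq2 did not call Alas1 (-1.78, adjusted p = 0.0934). The mitochondrial iron importer gene Slc25a28 had a log2 fold change of -0.85 (SE 0.21, edgeR adjusted p = 0.0331). That call was lost without either Control library and after GC correction (-0.53, edgeR adjusted p = 0.0518). Of 22 genes of peroxisome biogenesis and oxidation, Pex7 (log2 fold change 0.82) rose and Pex6 (-1.0) fell; neither call survived GC correction or the loss of either Control library, and Pex6 was also lost without Dph1 KO replicate 1 and with a filter at 1 CPM. Among 9 tested sterol and HDL partners, only Apoa1, which accepts lipid from Abca1, was called, with a log2 fold change of -1.92 (SE 0.38, edgeR adjusted p = 0.0161; GC-corrected -1.34, adjusted p = 0.00889). After GC correction 1 of the 9 was called higher and 4 lower, beside 4.35% higher and 5.08% lower over all tested genes. Of 6 tested ABC proteins outside the families described here, none was called by edgeR, and 1 was lower at an unadjusted p under 0.05. Some were called without Dph1 KO replicate 2, where more of all tested genes were called as well.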

How the data were processed

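Each of the 4 libraries has its own table of 35522 genes. Per the file headers, the authors deposited whole-number read counts per gene (total and unique, over genes, exons, junctions and introns), RPKM, TPM, and fractions of unique and intron reads; the fractions were not used. Per the submitters' processing notes, positions are on mm10, which is GRCm38. No aligner, counter or strand setting is named in the sources used.

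Total gene reads were compared with edgeR 4.0.16 (R 4.3.3): filterByExpr (about 10 reads in at least 2 libraries, 15 in all), TMM scaling, quasi-likelihood test with genotype as the only term, and Benjamini-Hochberg adjustment over 13303 genes at 0.05. The SE is the log2 fold change divided by the square root of F. TMM factors ranged from 0.884 to 0.945 over the Control libraries and from 1.04 to 1.16 over the others. The biological coefficient of variation was 18.5%. Replicate pairs differed by more than sampling noise (chi-square per degree of freedom 32.0 and 83.0), so each library was kept as a sample. For each symbol, the longest transcript in GENCODE M21 supplied the GC content. A smooth function of GC and exon length (mgcv 1.9.3, basis size 6), fitted to the deviations of log2 CPM in each library, gave an offset for the 11555 tested genes with both values. DESeq2 1.42.0 and limma 3.58.1 (voom, and trend on log2(TPM + 1)) served as alternatives, beside changed scaling, filters and read classes, and each library left out. The tests were checked on simulated data drawn without a trend on GC content or length, so removal of such a trend was not checked. A few genes counted in the lists are not reported here by name.

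The transporters and lists were chosen with earlier results of these data known. In full were given called transporters with a mean of at least 1 CPM and up to 3 of highest RPKM per site of action; other transporters are given where a comparison needs them. Of other lists, up to 3 called genes of lowest p, or else the 2 highest by RPKM, could be named. Of 222 list entries, 1 was not matched and 4 were matched by an older symbol.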

Additional observations from a re-analysis of the deposited data

How the results depend on the processing

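In all 7 transporters were called in the fit reported above (6 higher, 1 lower), and 7 to 9 with RLE scaling, limma-voom, no filter, a filter at 1 CPM, unique reads or exon reads. The count was 18 with no scaling beyond the library total (3422 genes over all), 11 with DESeq2, 3 after GC and length correction, and 0 by limma on log2(TPM + 1), where 3 of all genes were called; the unadjusted edgeR p was under 0.05 for 16 higher and 5 lower transporters. With 1 library left out there were 1 to 25 called transporters and 528 to 5405 called genes. These were 1 and 749 without Control replicate 1, 3 and 528 without Control replicate 2, then 7 and 1328 without Dph1 KO replicate 1 and 25 and 5405 without Dph1 KO replicate 2. A genotype left with 1 library is assumed to vary like the other pair, and the cause of these differences was not tested. Abcb1b was called under 13 of 14 alternatives (adjusted p 0.000114 to 0.192, the highest by limma on log2(TPM + 1)), and Slco1b2 and Abcc2 under 11 of 14 each (0.00031 to 0.192 and 0.000418 to 0.235). Slco1a4 and Abca7 were called under 9, and Abca8b and Abca9 under 10.

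Among the tested transporters, signs turned only for those that edgeR had not called, and the cause was not tested. After GC correction the log2 fold change was -0.14 for Abcd3, 0.10 for Abcb8, -0.17 for Abcg3, 0.28 for Abcb9, -0.06 for Abcc9, 0.18 for Abcc6, -0.09 for Slco3a1 and for Abca5 (0.62 before), 0.02 for Abca3 and 0.22 for Abcc10. By limma on log2(TPM + 1) it was 0.04 for Abcb8, 0.05 for Abcc6, 0.03 for Slco2b1, 0.34 for Abca3, 0.12 for Abcc1, 0.14 for Abcg1 and 0.29 for Abcc10. With no scaling it was 0.16 for Abca3 and for Abcc1, 0.09 for Abcg1 and 0.14 for Abcc10, and on exon reads 0.02 for Abcc10. Abcg5, barely negative in the reported fit, was at 0.10 after GC correction and 0.27 with no scaling. By limma it was at 0.28 on log2(TPM + 1) and at 0.02 with voom, and it ranged from -0.24 to 0.27 with 1 library left out. With 1 library left out, the range was -0.03 to 0.47 for Abcd3, -0.61 to 0.07 for Abcb9, -0.53 to 0.46 for Abca3, -0.48 to 0.37 for Abcc1 and -0.47 to 0.12 for Abcg1, and Slco3a1 was at -0.01 when Control replicate 1 was dropped. No paired analysis was possible because the labels give no replicate numbers shared between the genotypes. Low counts limit Abca9, Abca17, Abcg3 and Slco1a6.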

Other observations

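Genes that mark the zones of the liver lobule were read as 2 lists. Of 10 pericentral genes, 1 rose and 4 fell (10% and 40%, beside 4.86% and 7.47% of all tested genes). After GC correction 1 was higher and 3 were lower (all tested genes: 4.35% and 5.08%). Oat, ornithine aminotransferase, rose (log2 fold change 0.97, SE 0.20, edgeR adjusted p = 0.0192, GC-corrected 0.85). The ammonium transporter gene Rhbg (-1.13) and the glutathione transferase gene Gstm3 (-0.94) were among those that fell. After GC correction Gstm3 kept its call (-0.63, edgeR adjusted p = 0.0383) and Rhbg did not (-0.62, adjusted p = 0.0699). Of 9 periportal genes none was called by edgeR, with 1 higher and 1 lower at an unadjusted p under 0.05. The most abundant periportal genes by RPKM were Ass1, of the urea cycle, with 3330 and 4170 CPM in Control and 2280 and 3500 CPM in Dph1 KO, and Cyp2f2, with 2000 and 2930 CPM in Control and 1210 and 1360 CPM in Dph1 KO. Leaving out either Control library ended the calls of Oat and Gstm3, and that of Rhbg was lost without Control replicate 2. Fewer pericentral falls were called without either Control library, as was so for falls over all tested genes.

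Bile duct markers summed to 62.8 and 56.5 CPM in Control and 42.1 and 39.2 CPM in Dph1 KO, and none of the 6 tested was called (3 lower at an unadjusted p under 0.05). Leukocyte markers summed to 7.33 to 9.14 CPM over the 4 libraries, where the B cell gene Cd79a fell (log2 fold change -1.32, edgeR adjusted p = 0.0338), a call kept in 1 of 4 fits with a library left out and lost by DESeq2 (adjusted p = 0.0561) and after GC correction (-0.88, edgeR adjusted p = 0.0941). Erythroid markers summed to 253 to 342 CPM and neither of the tested ones was called.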
